A study of Rattus norvegicus with 61 samples.

Results

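The genes described here are a receptor for foreign compounds with its partner, and enzymes that oxidise or conjugate such compounds. They were picked by name as 8 rat genes: Ahr (NCBI Gene ID 25690), Arnt (25242), Tiparp (310467), Cyp1b1 (25426), Cyp2d4 (171522), Sult1a1 (83783), Sult4a1 (58953) and Aldh1a1 (24188). Counts were found for 7 of the 8 in both brain regions, among 14231 genes counted in the striatum and 14129 in the cerebellum. Tiparp had no row in either table and was not analysed here. A gene counted as near the detection floor when its median was under 10 reads per library or when the filter on low counts removed it. Only Cyp1b1 met that rule, in both regions, so 6 of these genes could be tested for the striatum and 7 for the cerebellum.

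The libraries came from male adolescent Sprague-Dawley rats, a common outbred laboratory strain, that each carried an implant under the skin of the back from postnatal day 28. The polymer held 4-OH-PCB52, the hydroxylated form of a polychlorinated biphenyl, at 1% (low), 5% (medium) or 10% (high), or held none of it (0%, sham), and stayed in place for 28 days. All groups therefore carried the polymer and the surgery, and no rat without an implant was among them. Punches of striatum and cerebellum gave 30 and 31 libraries from 32 rats, of which 29 had both regions. The striatum had 8 sham, 6 low, 8 medium and 8 high libraries, and the cerebellum 7, 8, 8 and 8. The question put to the data was whether the exposure shifted transcript levels in each region.

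The aryl hydrocarbon receptor, the product of Ahr, is held in the cytosol by chaperones until a planar aromatic ligand binds it. It then moves to the nucleus, pairs with ARNT and binds a short DNA element with the core GCGTG, which turns on genes such as Cyp1b1, a microsomal oxidase, and Tiparp, an ADP-ribosyltransferase that dampens the receptor. Hydroxylated biphenyls are also substrates of phenol sulfotransferases such as SULT1A1, which moves a sulfate group onto the hydroxyl. SULT4A1 is a neuronal relative of these enzymes with no settled substrate, CYP2D4 is a drug-oxidising cytochrome of rat brain, and ALDH1A1 turns retinaldehyde into retinoic acid.

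The 250 bases before the start of transcription are shown for the members that hold the receptor's core motif there. The length of this window was a choice, and bases farther from the start were not searched. The sequences are from RefSeq on the GRCr8 build, whereas the counts were made on rn6, and 7 of the 8 genes matched the promoter table. Capitals mark GCGTG, or CACGC where the motif lies on the opposite strand, each searched on both strands.
Cyp1b1, chr6:21094315-21094564, + strand: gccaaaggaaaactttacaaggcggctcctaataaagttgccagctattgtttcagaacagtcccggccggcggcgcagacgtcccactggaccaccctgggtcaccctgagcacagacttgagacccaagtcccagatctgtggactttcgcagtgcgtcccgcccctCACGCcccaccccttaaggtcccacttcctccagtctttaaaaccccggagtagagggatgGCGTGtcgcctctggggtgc
Arnt, chr2:185686453-185686702, + strand: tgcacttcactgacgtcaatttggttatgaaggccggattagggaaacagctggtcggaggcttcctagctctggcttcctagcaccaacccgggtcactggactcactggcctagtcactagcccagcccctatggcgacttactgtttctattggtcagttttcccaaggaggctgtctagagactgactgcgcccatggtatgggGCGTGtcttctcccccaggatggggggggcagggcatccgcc
Tiparp, chr2:152063519-152063768, + strand: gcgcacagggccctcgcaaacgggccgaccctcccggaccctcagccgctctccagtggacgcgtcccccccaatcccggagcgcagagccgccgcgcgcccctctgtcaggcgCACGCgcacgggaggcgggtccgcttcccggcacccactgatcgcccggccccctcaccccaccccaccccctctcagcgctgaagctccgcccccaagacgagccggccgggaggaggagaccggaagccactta
Cyp1b1 held 2 matches, which began 81 bases (opposite strand) and 20 bases (same strand) before the start. Arnt held 1 match at 42 bases on the same strand, and Tiparp 1 at 136 bases on the opposite strand. The windows of Ahr, Cyp2d4, Sult1a1 and Aldh1a1 held none. Across 33469 rat promoter windows of the same length, 8666 (25.9%) held the motif at least once, so a match is common and is only a description of the letters.

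Striatal libraries held 5850199 to 10944066 reads in all and cerebellar libraries 5420458 to 10994625, so that 3 reads stood for 0.274 to 0.513 CPM and 0.273 to 0.553 CPM (CPM, the reads of a gene scaled to a common library size). Transcripts that define each region's main neurons were higher in that region by their medians. Ppp1r1b, of striatal projection neurons, had a median of 3526 CPM in the striatum (194 to 7186) and 216.5 CPM in the cerebellum (107 to 838). Gabra6, of cerebellar granule cells, had a median of 0.158 CPM in the striatum (0 to 4.46) and 816 CPM in the cerebellum (1.79 to 986). Pcp2, of Purkinje cells, did not overlap between regions (3.99 to 23.7 CPM in the striatum, 26.6 to 7216 CPM in the cerebellum), but the ranges nearly met. These marker levels were scaled within each region, not over both together. Drd1, of striatal projection neurons, ran from 8.25 to 518 CPM in the striatum and 0 to 14.1 CPM in the cerebellum. In their own region's marker 4 libraries were low, within the other region's range of it. They were striatal sham 17, low 20 and high 13, with 194, 209 and 260 CPM of Ppp1r1b, and cerebellar low 22, with 1.79 CPM of Gabra6. These 4 were among the libraries that stood apart, as defined next. A library was set aside as such when its mean log2 CPM over ribosomal protein transcripts, or over its own region's main neurons, lay more than 1 from the regional median. This marked 8 of 30 striatal libraries (sham 17 and 49, low 20, medium 8 and 41, high 13, 28 and 44, named by group and animal number) and 10 of 31 cerebellar ones (sham 48, low 6 and 22, medium 8, 24, 40 and 41, high 28, 43 and 59). Levels of several members moved with these libraries, so results are given with and without them. In tissue punches, fewer cells of a type and less RNA per cell cannot be told apart.

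No member was called different from sham at any loading in either region. With edgeR's quasi-likelihood test and Benjamini-Hochberg adjustment over all genes, 0 of 6 members in the striatum and 0 of 7 in the cerebellum passed an adjusted p of 0.05 at low, medium or high, and none had an unadjusted p under 0.05. DESeq2 also called 0 members. This does not show that levels were unchanged, because some 95% intervals were wide. They ran from -2.49 to 0.27 for cerebellar Cyp1b1 at high and from -1.73 to 0.08 for cerebellar Sult1a1 at low. Few genes were called at all. Of 12267 striatal genes 0% were called at each loading (471, 453 and 141 genes at unadjusted p under 0.05 for low, medium and high), and of 11946 cerebellar genes likewise 0% (182, 170 and 1394). DESeq2 called 0 genes in each of these comparisons except 1 in the cerebellum at the high loading. When all 4 groups were tested together for any difference, 0.0245% of striatal genes (3 genes) and 0% of cerebellar genes were called, and in a linear trend with loading 0% in both, with 0 members among them. The unadjusted p was under 0.05 for 248 striatal and 1236 cerebellar genes in the first test and for 119 and 2464 in the second, with 0 members among them. DESeq2 differed here: it called 153 cerebellar genes for any difference and 901 for the trend, against 0 striatal genes in either, and again 0 members. The 3 loadings of a region were set against the same sham libraries. The labels do not say whether littermates were used, and the p-values measure the spread between rats as sampled here.

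**Figure D1:**
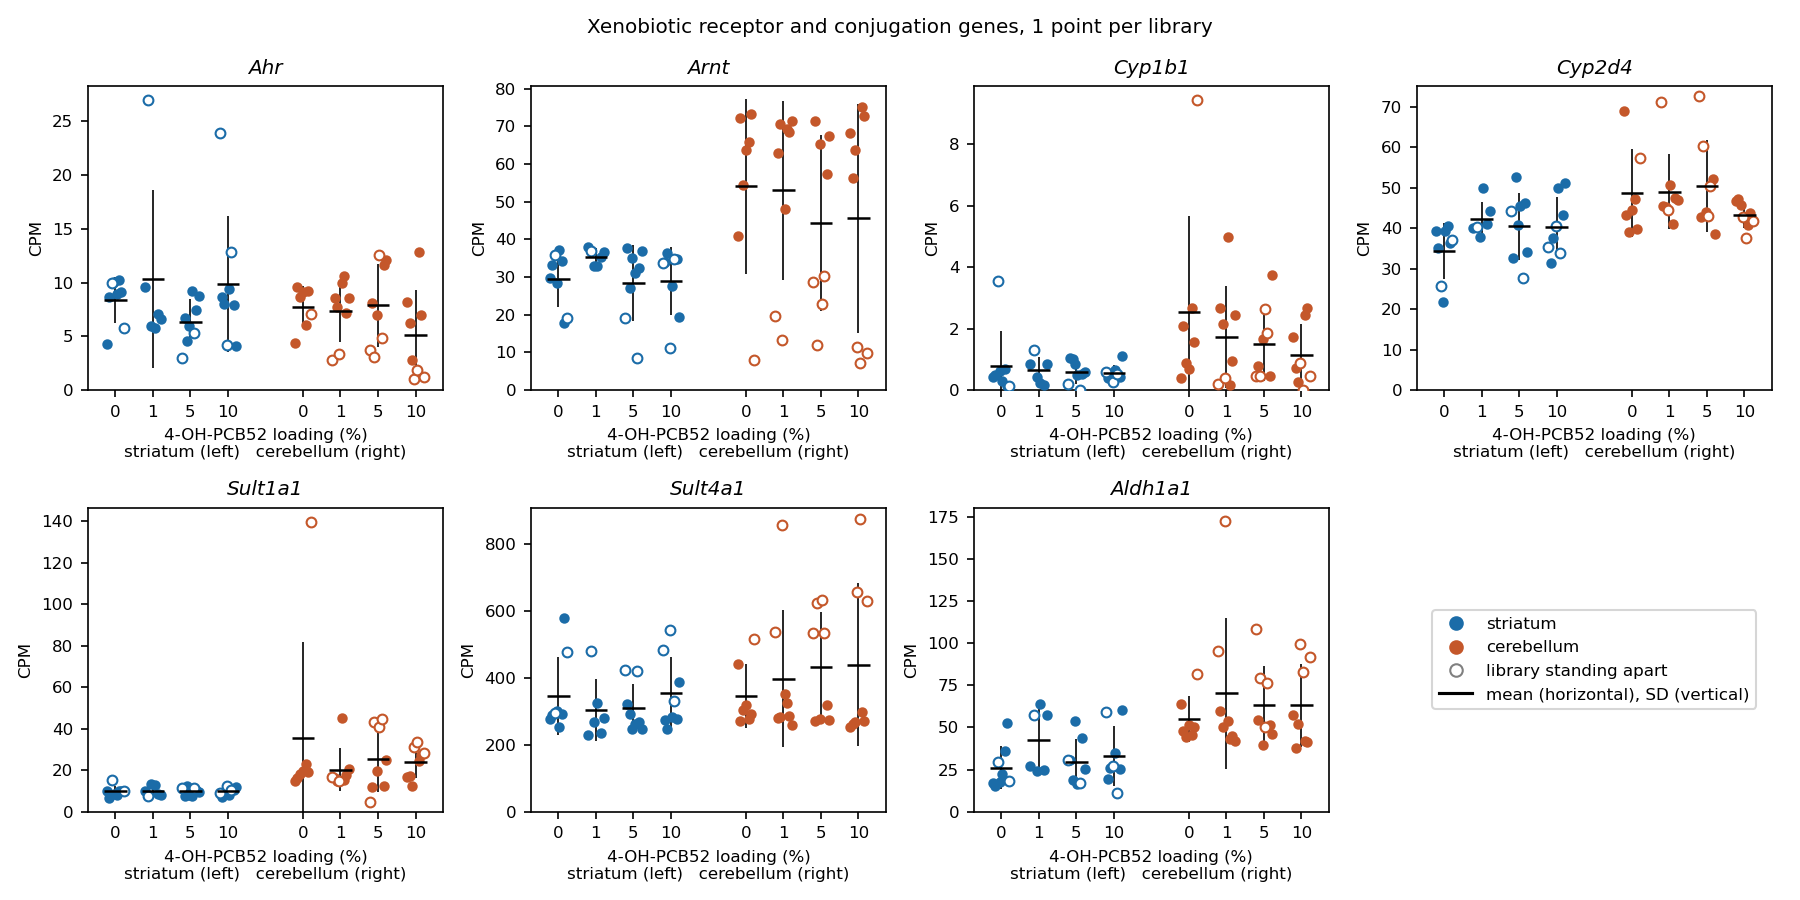
Level of each member in CPM, scaled within a region, in every library by implant loading (0, 1, 5 and 10%), striatum in blue and cerebellum in orange, with open points for libraries standing apart, a horizontal line for the mean and a vertical line for 1 SD on an axis that starts at 0. The groups of a region overlap in every panel, and the cerebellar points of Arnt and Sult4a1 split into open and filled ones.

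Ahr, the receptor itself, was measured at low but countable levels, with a median of 53.5 reads per striatal library and 54 per cerebellar library. In the striatum its level averaged 8.38 ± 2.17 CPM in sham (SD, n = 8), 10.3 ± 8.28 in low (n = 6), 6.38 ± 2.11 in medium (n = 8) and 9.88 ± 6.34 in high rats (n = 8). The lowest, median and highest values were 4.29, 9.04 and 10.2 CPM in sham, 5.78, 6.82 and 26.99 in low, 2.99, 6.36 and 9.22 in medium, and 4.07, 8.31 and 23.9 in high. The order of the means was low, high, sham and medium, and all neighbours overlapped. The 2 highest values belonged to low 20 (26.99 CPM) and high 13 (23.9 CPM), whose summed level of 13 projection neuron markers was 1147 and 1263 CPM, against a striatal range otherwise of 5835 to 20632.5 CPM apart from sham 17 at 701 CPM. Sham 17 had an Ahr level of 9.97 CPM. The log2 fold changes over sham were 0.30 ± 0.36 (SE) at low, -0.40 ± 0.34 at medium and 0.24 ± 0.33 at high, with adjusted p of 0.913 to 1.00. Without the libraries standing apart they were -0.28 at low and -0.16 at high, and without low 20 alone the low value was -0.27. The part of tissue composition in these values was not tested.

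In the cerebellum Ahr averaged 7.73 ± 1.95 CPM in sham (n = 7), 7.34 ± 2.86 in low, 7.89 ± 3.84 in medium and 5.15 ± 4.18 in high rats (n = 8 each). The high group ran from 0.995 to 12.9 CPM (median 4.52), against 4.40 to 9.60 CPM (median 8.68) in sham. The 3 lowest high libraries were high 28 (0.995 CPM), high 59 (1.27) and high 43 (1.85). These are the 3 high libraries that stood apart, and their ribosomal protein transcripts summed to 175223, 132298 and 346432 CPM, against 12346 to 89236 CPM in the other cerebellar libraries. Ahr did not follow this sum in all of them: sham 48, at 89236 CPM, had 7.07 CPM of Ahr, and medium 40, which also stood apart, had 12.5 CPM. The log2 fold change was -0.57 ± 0.43 at high (adjusted p 0.634), 0.03 ± 0.42 at medium and -0.08 ± 0.42 at low. Among the other high libraries Ahr averaged 7.42 ± 3.64 CPM (n = 5), against 7.85 ± 2.11 CPM in the remaining sham libraries (n = 6).

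Arnt, which encodes the partner that Ahr needs to bind DNA, lay at a median of 232 reads per striatal and 409 per cerebellar library. In the striatum it averaged 29.4 ± 7.40 CPM in sham, 35.4 ± 2.18 in low, 28.5 ± 10.1 in medium and 29.0 ± 9.08 in high rats. In the cerebellum the means were 54.1 ± 23.2, 53.05 ± 23.8, 44.4 ± 23.4 and 45.6 ± 30.4 CPM. Log2 fold changes over sham were 0.27 ± 0.25, -0.05 ± 0.23 and -0.03 ± 0.23 at low, medium and high in the striatum, and -0.03 ± 0.50, -0.28 ± 0.50 and -0.24 ± 0.50 in the cerebellum. The wide cerebellar spread followed the libraries standing apart: those 10 had 7.19 to 30.3 CPM (median 12.7), against 40.9 to 75.1 CPM (median 67.4) in the other 21, with no overlap. The share of all genes that split this way was not counted, so the split cannot be called particular to Arnt. Without those libraries the cerebellar group means were 61.7 ± 12.2 CPM in sham, 65.2 ± 8.92 in low, 65.4 ± 5.88 in medium and 67.2 ± 7.55 in high rats. In the striatum the lowest values, 8.47 CPM in medium 41 and 11.2 CPM in high 28, were also in libraries with raised ribosomal transcripts (48716 and 69706 CPM summed).

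**Figure D2:**
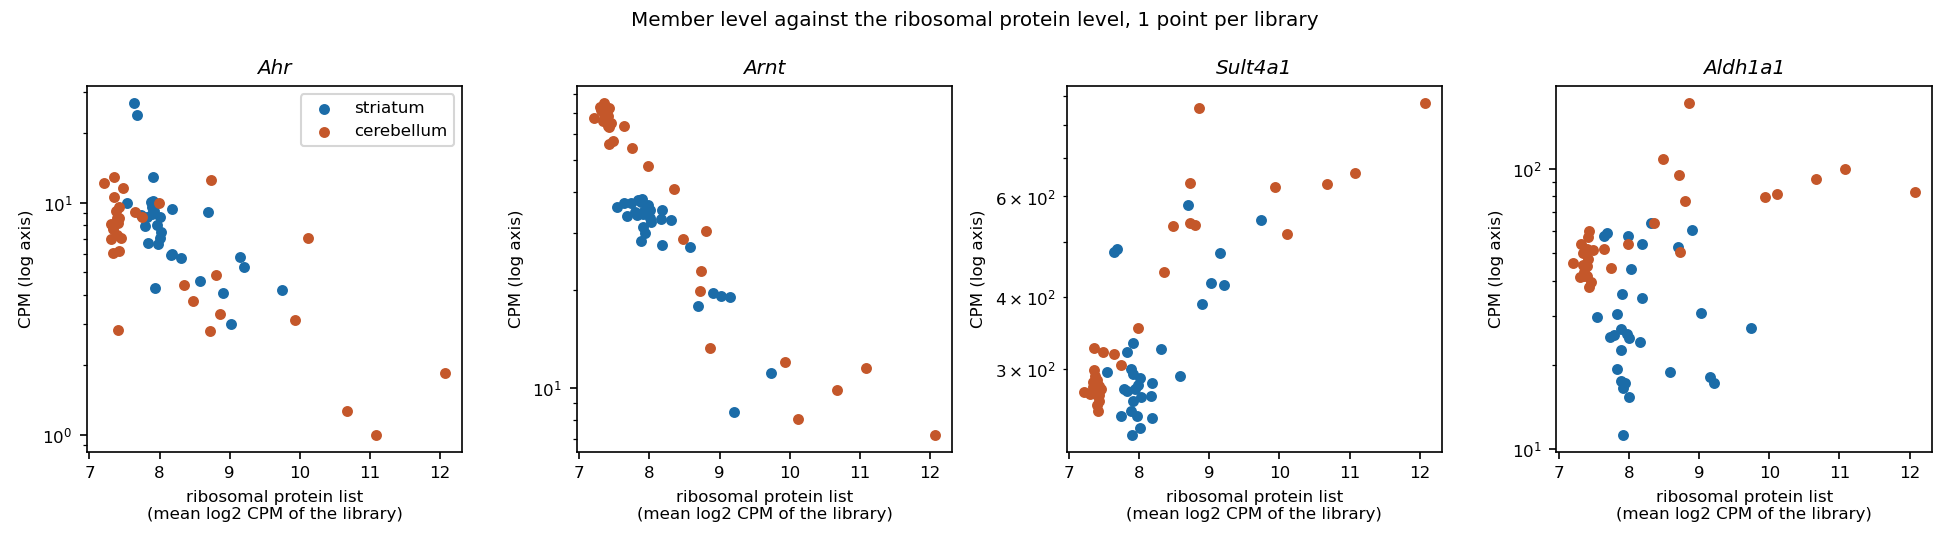
Level of Ahr, Arnt, Sult4a1 and Aldh1a1 (CPM, log axis) in each library against the library's mean log2 CPM over 72 ribosomal protein transcripts, striatum in blue and cerebellum in orange. Arnt lies lower in libraries with higher ribosomal transcripts in both regions, and in the cerebellum Sult4a1 lies higher there.

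Cyp1b1, the receptor's classical target among these genes, was barely detected. Striatal libraries held a median of 4 reads (range 0 to 37), 14 of 30 had 3 reads or fewer, and 29 of 30 had fewer than 10. The filter removed it there, so no striatal test was made. Group means in the striatum were 0.797 CPM in sham, 0.644 in low, 0.588 in medium and 0.563 in high rats, most of them within a few reads of the floor. The one striatal library with 10 reads or more was sham 17, at 37 reads (3.55 CPM), which also held the highest striatal sums of fibroblast markers (1256 CPM) and choroid plexus markers (12931 CPM).

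Cerebellar libraries held a median of 7 Cyp1b1 reads (range 0 to 76), with 6 of 31 at 3 reads or fewer and 16 of 31 under 10. The means were 2.53 ± 3.14 CPM in sham (range 0.400 to 9.42), 1.74 ± 1.66 in low (0.163 to 4.97), 1.51 ± 1.21 in medium (0.460 to 3.76) and 1.15 ± 1.02 in high rats (0 to 2.69). The means stood in descending order of loading, but the ranges overlapped throughout. Log2 fold changes were -0.55 ± 0.70 at low, -0.75 ± 0.70 at medium and -1.11 ± 0.71 at high, with a 95% interval at high of -2.49 to 0.27 and an adjusted p of 0.550. Sham 48 alone carried 9.42 CPM. Without that library the values were 0.33 at low, 0.13 at medium and -0.24 at high.

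Cyp2d4, the brain drug oxidase, was well counted, with medians of 272.5 and 345 reads. Its near-identical relatives of the Cyp2d family share sequence with it, and how shared reads were counted is not given in the sources used here, so its level is uncertain to that extent. In the striatum sham rats had 21.7 to 40.6 CPM (median 36.6), low 37.8 to 50.0 (median 40.6), medium 27.6 to 52.5 (median 42.5) and high 31.4 to 51.1 (median 39.0). All 3 exposed medians lay above sham and the ranges overlapped. The log2 fold changes were 0.30 ± 0.15 at low (unadjusted p 0.0519, adjusted 0.905), 0.23 ± 0.14 at medium and 0.23 ± 0.14 at high, so none passed the test. In the cerebellum they were 0.01 ± 0.14, 0.05 ± 0.14 and -0.17 ± 0.14, around means of 48.6 ± 10.8 CPM in sham, 49.03 ± 9.33 in low, 50.4 ± 11.3 in medium and 43.3 ± 3.25 in high rats.

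**Figure D3:**
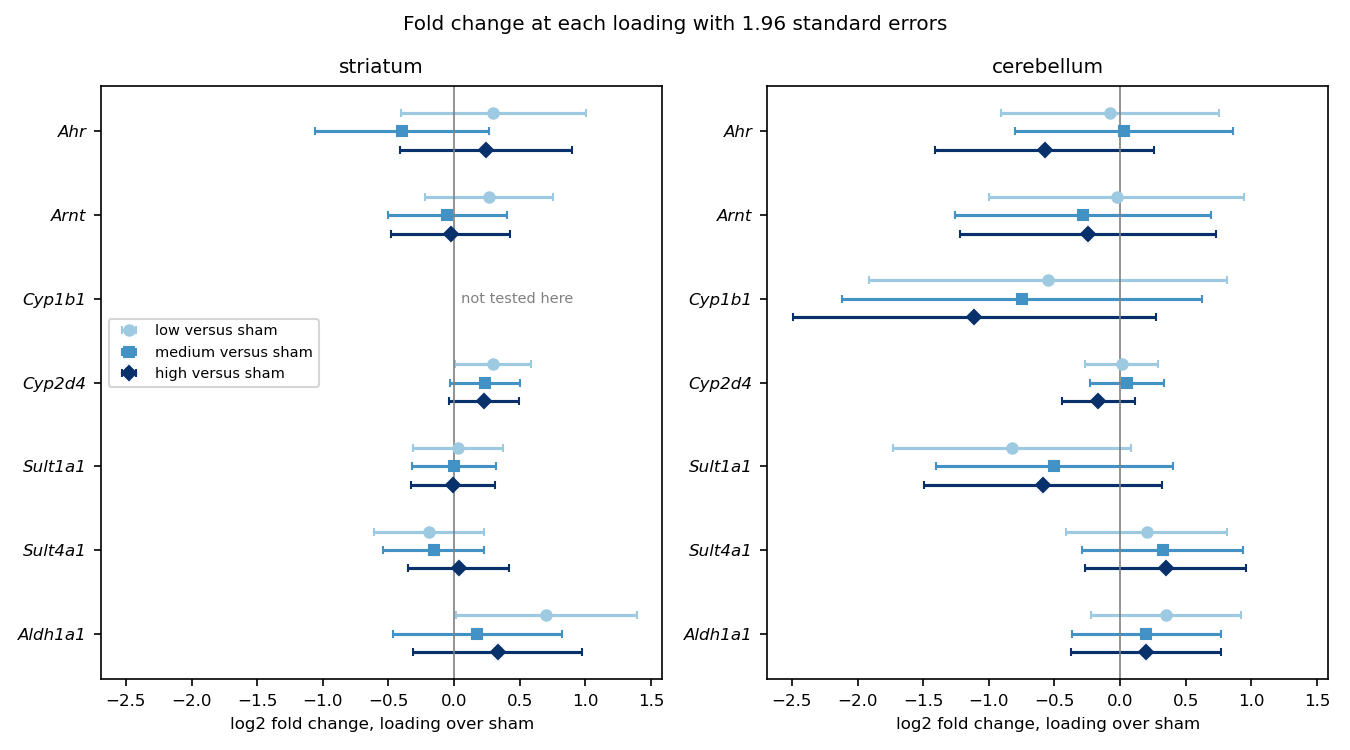
Log2 fold change of each member at low, medium and high loading over sham, with bars of 95% confidence from the standard error, in the striatum (left) and the cerebellum (right). The bars are shortest for Cyp2d4 and, in the striatum, Sult1a1, and longest for Cyp1b1 in the cerebellum. Striatal Cyp2d4 and Aldh1a1 at low have bars that end just above 0, at unadjusted p of 0.0519 and 0.0547 in edgeR's test.

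Sult1a1, the phenol sulfotransferase, was almost level across striatal groups. It averaged 9.81 ± 2.56 CPM in sham, 10.0 ± 2.55 in low, 9.80 ± 1.92 in medium and 9.78 ± 1.79 in high rats, at a median of 69 reads per library. The log2 fold changes were 0.03 ± 0.18, -0.00 ± 0.16 and -0.01 ± 0.16, with 95% intervals of -0.31 to 0.38 at low, -0.32 to 0.32 at medium and -0.33 to 0.31 at high.

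In the cerebellum Sult1a1 averaged 35.7 ± 45.9 CPM in sham, 20.2 ± 10.2 in low, 25.3 ± 15.8 in medium and 23.8 ± 7.65 in high rats. The lowest, median and highest values were 14.8, 19.2 and 139.6 CPM in sham, 14.7, 16.6 and 45.1 in low, 4.48, 22.2 and 44.6 in medium, and 12.5, 25.8 and 33.7 in high. One sham library, sham 48, set the sham mean, while the sham median lay below those of medium and high. The log2 fold changes were -0.82 ± 0.46 at low (unadjusted p 0.0859), -0.50 ± 0.46 at medium and -0.59 ± 0.46 at high. Without sham 48 they were 0.13, 0.45 and 0.35, with adjusted p of 0.557 to 1.00 in edgeR's test, so that each sign depended on this library. At medium the sign also depended on other libraries. Without all libraries standing apart the means were 18.4 ± 2.81 CPM in sham, 21.7 ± 11.7 in low, 17.2 ± 6.20 in medium and 19.5 ± 6.06 in high rats.

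The libraries with the most Sult1a1 also held the most fibroblast transcripts. Markers of meningeal and perivascular fibroblasts, 8 genes that include Dcn, Lum and Col1a1, summed to 4757 CPM in sham 48 and 1691 CPM in low 35. Next came medium 40 at 1015 CPM, medium 24 at 992 CPM and medium 41 at 983 CPM. Their Sult1a1 levels were 139.6, 45.1, 41.03, 43.2 and 44.6 CPM, the 5 highest of the 31 cerebellar libraries. The 3 lowest Sult1a1 levels, 4.48, 11.9 and 12.4 CPM, were in medium 8, medium 10 and medium 54, whose fibroblast sums were 149, 214 and 134 CPM. Cyp1b1 was also highest in sham 48 (9.42 CPM) and low 35 (4.97 CPM), but its order was not that of the fibroblast sums throughout. Medium 24, 40 and 41 stood apart, whereas the highest Cyp1b1 level of the medium group, 3.76 CPM, was in a library that did not. The median Cyp1b1 level was 0.466 CPM in the 10 cerebellar libraries standing apart and 1.65 CPM in the other 21. By group the median fibroblast sum was 405 CPM in sham, 445 in low, 567 in medium and 492 in high rats, over ranges of 262 to 4757, 86.8 to 1691, 134 to 1015 and 130.0 to 809 CPM. In the fit 0 of the 8 markers were above sham at any loading (medians -0.87, -0.90 and -1.06), and 0 were called. The part of these cells in the Sult1a1 levels was not tested.

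**Figure D4:**
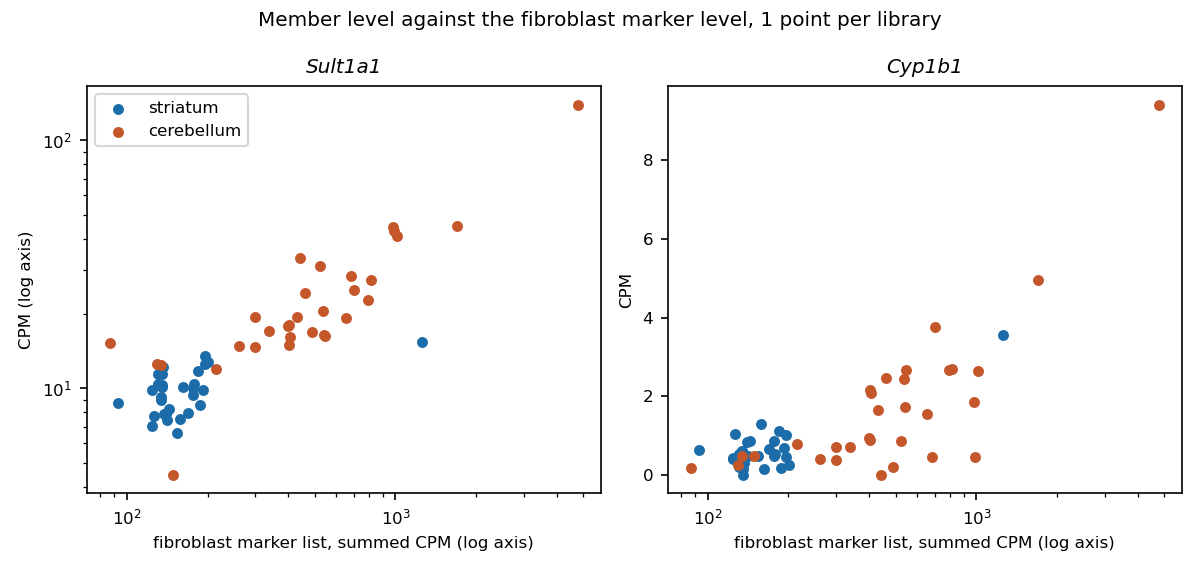
Level of Sult1a1 (log axis) and Cyp1b1 (linear axis) in CPM against the summed CPM of 8 fibroblast markers (log axis), 1 point per library, striatum in blue and cerebellum in orange. Sham 48 of the cerebellum lies at the upper right of both panels, at 4757 CPM of fibroblast markers.

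Sult4a1, the neuronal relative, was the most counted member, with medians of 2292 and 2191 reads. Striatal means were 345.7 ± 117 CPM in sham, 303 ± 92.8 in low, 310.1 ± 72.8 in medium and 354 ± 109 in high rats, and cerebellar means were 345.9 ± 95.3, 398 ± 206, 433 ± 163 and 439.8 ± 244 CPM. The cerebellar log2 fold changes were 0.20 ± 0.31, 0.32 ± 0.31 and 0.35 ± 0.31, with adjusted p of 0.724 at high. The cerebellar libraries that stood apart had 517 to 876 CPM (median 627), against 253 to 443 CPM (median 280.2) in the others, with no overlap. As for Arnt, the share of all genes that split this way was not counted. Without those libraries the cerebellar means stood in the opposite order, at 317 ± 63.9 CPM in sham, 298 ± 34.6 in low, 285 ± 23.5 in medium and 271 ± 16.9 in high rats, with log2 fold changes of -0.07, -0.14 and -0.21.

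Aldh1a1 showed its highest striatal mean at low. Sham rats averaged 26.2 ± 12.9 CPM (15.4 to 52.7, median 20.4), low 42.5 ± 19.0 (24.2 to 64.1, median 42.2), medium 29.6 ± 13.4 (16.5 to 54.1, median 27.8) and high 32.9 ± 17.9 (11.2 to 60.4, median 26.4). The groups overlapped, and the highest sham value, in sham 48, lay above 3 of the 6 low values. The log2 fold change at low was 0.70 ± 0.35 (unadjusted p 0.0547, adjusted 0.905), with 0.18 ± 0.33 at medium and 0.33 ± 0.33 at high. Leaving out 1 library at a time gave 0.55 to 0.93 at low. The highest of these was without sham 48 (unadjusted p 0.0121, adjusted 0.998 in edgeR's test). In the cerebellum the means were 55.0 ± 13.4 CPM in sham, 70.2 ± 44.8 in low, 63.3 ± 23.1 in medium and 63.1 ± 24.8 in high rats, with log2 fold changes of 0.35 ± 0.29, 0.20 ± 0.29 and 0.20 ± 0.29. Without the libraries standing apart they were -0.0312, -0.0719 and -0.12, and without low 22 alone the low value was 0.0143. Low 22 reached 172 CPM there, the highest of the region, in a library whose granule cell markers summed to 185 CPM against a cerebellar median of 7440 CPM.

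The change from sham was also compared between regions, as striatum minus cerebellum in one fit of all 61 libraries. Of the 12616 genes tested, 0% were called at low, 0% at medium and 0.00793% (1 gene) at high, and 0 of 7 members were among them. At low, medium and high 291, 452 and 1015 genes had an unadjusted p under 0.05, and DESeq2 called 2, 8 and 4 genes and 0 members. The member with the smallest p at high was Cyp2d4, with a striatal minus cerebellar change of 0.39 ± 0.19 (unadjusted p 0.0492, adjusted 0.591 in edgeR's test). With a replicate block for the rat, over the 29 paired animals, Ahr had the smallest p at high, with a change of 0.96 ± 0.35 (unadjusted p 0.0112, adjusted 0.869 in edgeR's test), and Cyp2d4 had 0.39 ± 0.18 (unadjusted p 0.0364, adjusted 0.869). In the same fit Cyp2d4 had 0.40 ± 0.19 at low (unadjusted p 0.0459 in edgeR's test, not called) and 0.20 ± 0.18 at medium. The 3 lowest cerebellar Ahr levels of the high group were in libraries standing apart.

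The regions themselves differed in most members. Taken over the 4 groups, 6 of 7 members were called, all lower in the striatum than in the cerebellum. This fit did not pair the regions of a rat, and values with a replicate block for the rat are given below. Of all genes tested, 71.6% were called in either direction and 40.8% were called lower in the striatum, so such a difference is common among brain genes. The median log2 difference over all genes was -0.13 (-0.10 with another scaling, that of relative log expression). Levels in this comparison were scaled over both regions together.

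Sult1a1 and Cyp1b1 had the largest differences with all libraries in the fit. Sult1a1 averaged 9.67 ± 2.04 CPM in the striatum (6.52 to 15.3, n = 30), against 26.2 ± 23.4 CPM in the cerebellum (4.44 to 139.7, n = 31), a log2 difference of -1.42 ± 0.18 (adjusted p 5.12e-10). In 28 of 29 rats with both regions the striatum was the lower, and in 16 of 16 where neither library stood apart. Cyp1b1 was lower by a similar factor, at 0.639 ± 0.628 CPM in the striatum against 1.74 ± 1.87 CPM in the cerebellum (-1.40 ± 0.34, adjusted p 0.000252), although its level is near the floor in both regions. Without the libraries standing apart the difference was -1.07 for Sult1a1 (9.30 ± 1.85 against 19.9 ± 7.35 CPM) and -1.58 for Cyp1b1 (0.574 ± 0.273 against 1.77 ± 1.28 CPM). With the replicate block for the rat they were -1.15 ± 0.16 and -1.15 ± 0.35. The fibroblast marker list was also lower in the striatum, with 8 of 8 members called and a median of -1.76, and its part in these differences was not tested.

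Aldh1a1 averaged 31.7 ± 15.9 CPM in the striatum and 63.9 ± 27.9 CPM in the cerebellum (-0.997 ± 0.16, adjusted p 2.38e-07), with the striatum lower in 25 of 29 rats. Without the libraries standing apart Aldh1a1 averaged 31.9 ± 15.5 against 49.8 ± 7.07 CPM, a smaller gap, with the striatum lower in 13 of 16 rats. Cyp2d4 averaged 38.5 ± 7.11 CPM in the striatum and 48.5 ± 8.94 CPM in the cerebellum (-0.33 ± 0.07, adjusted p 2.72e-05), lower in 25 of 29 rats. Without those libraries Cyp2d4 averaged 39.8 ± 7.05 against 46.9 ± 6.42 CPM, lower in the striatum in 15 of 16 rats. Arnt averaged 29.8 ± 8.00 CPM in the striatum and 50.3 ± 25.5 CPM in the cerebellum (-0.74 ± 0.20, adjusted p 0.00105). Without the libraries standing apart the Arnt difference was -1.07 (31.7 ± 5.29 against 66.5 ± 9.32 CPM), and the striatum was lower in 16 of 16 rats. With the replicate block for the rat the differences were -1.01 ± 0.16 for Aldh1a1, -0.31 ± 0.06 for Cyp2d4 and -0.57 ± 0.17 for Arnt.

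Sult4a1 and Ahr were less settled. Sult4a1 averaged 324 ± 95.6 CPM in the striatum and 410.3 ± 178 CPM in the cerebellum (-0.34 ± 0.13, adjusted p 0.0178), but without the libraries standing apart the difference was -0.07 (adjusted p 0.412). With the replicate block for the rat the Sult4a1 difference was -0.28 ± 0.11 (adjusted p 0.0290 in edgeR's test). Ahr averaged 8.51 ± 5.10 CPM in the striatum and 7.14 ± 3.46 CPM in the cerebellum (0.26 ± 0.20, adjusted p 0.238). With a replicate block for the rat, over the 29 paired animals, the Ahr difference was 0.29 ± 0.13 (adjusted p 0.0466 in edgeR's test). This made 7 of 7 members called, but 8852 genes had a smaller p than Ahr in that fit, so a call was common there too. In the unpaired fit without the libraries standing apart the Ahr difference was -0.21 (adjusted p 0.126), so its sign depended on those libraries. The same rat had the higher Ahr level in the striatum in 17 of 29 cases.

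**Figure D5:**
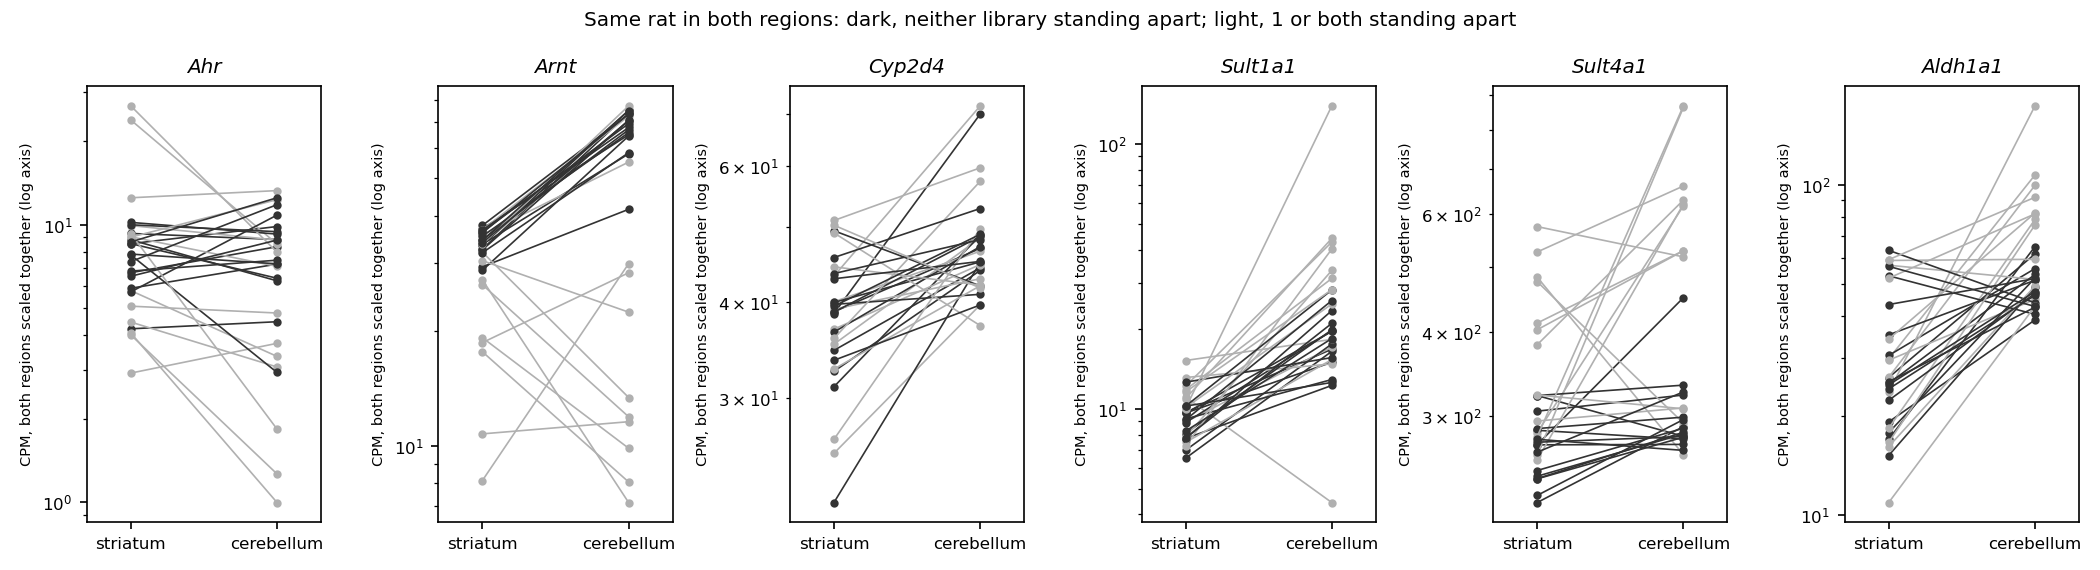
Level of 6 members (CPM, both regions scaled together, log axis) in the striatum (left) and the cerebellum (right) of the 29 rats with both regions, joined by a line per rat, dark where neither library stood apart. The dark lines of Arnt and Sult1a1 all rise towards the cerebellum (16 of 16 rats), while those of Ahr go both ways.

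The other genes of the pathway were read from 10 lists with 183 genes, of which 139 passed the filter for both regions. None passed the adjusted threshold against sham in either region. At low, medium and high 6.29%, 5.59% and 2.80% of the 143 tested in the striatum had an unadjusted p under 0.05, against 3.84%, 3.69% and 1.15% of all striatal genes. In the cerebellum the shares were 1.39%, 0.694% and 4.86% of 144, against 1.52%, 1.42% and 11.7% of all cerebellar genes. Among the receptor's complex and partners, 9 of 11 were tested, with 5, 6 and 5 of them above sham at low, medium and high in the striatum (medians 0.09, 0.02 and 0.02) and 5, 6 and 2 in the cerebellum (0.02, 0.06 and -0.20). The median over all genes lay between -0.03 and 0.02 in these comparisons. Among 12 of its target genes only 5 striatal and 6 cerebellar ones could be tested. Of these 4, 4 and 4 lay above sham at low, medium and high in the striatum (medians 0.16, 0.11 and 0.17) and 3, 3 and 4 in the cerebellum (-0.10, -0.01 and 0.09). Striatal Slc7a5 at low was 0.29 ± 0.13 (unadjusted p 0.0413, adjusted 0.905 in edgeR's test) and Nfe2l2 at medium 0.23 ± 0.11 (unadjusted p 0.0392, adjusted 1.00); both were picked after their values were seen. Cyp1a1, the most inducible target in liver, had a row in the cerebellum alone with a median of 0 reads. Ahrr, the receptor's repressor, had a median of 0 reads in both regions. Nqo1, a quinone reductase, Nfe2l2, the oxidative stress regulator, and Slc7a5, an amino acid carrier, had medians of 99, 271 and 603.5 reads in the striatum and 94, 253 and 541 in the cerebellum.

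Few genes of the wider lists moved the same way in both regions even at an unadjusted p under 0.05. At low and at high this held for Gstm6, a glutathione transferase of the mu class, which had a median of 17 reads in the striatum and 8 in the cerebellum, under the 10 reads used above for the floor. Its log2 fold changes at low were -0.89 ± 0.36 in the striatum and -1.47 ± 0.70 in the cerebellum, and at high -0.83 ± 0.33 and -1.81 ± 0.72. At medium it held for Cyp7b1, which hydroxylates neurosteroids (0.31 ± 0.12 in the striatum, 0.23 ± 0.11 in the cerebellum). Their adjusted p ran from 0.417 to 1.00 in edgeR's test. In the sulfation list, which holds Sult1a1 and Sult4a1, 11 of 19 genes were tested, with 8, 4 and 6 above sham in the striatum and 7, 7 and 6 in the cerebellum. Striatal Sult1d1, of this list, was 0.52 ± 0.19, 0.47 ± 0.18 and 0.47 ± 0.18 at low, medium and high. Its unadjusted p was 0.0101, 0.0125 and 0.0112, and its adjusted p 0.905 or more in edgeR's test. Striatal Bpnt1 went the other way at low (-0.23 ± 0.10, unadjusted p 0.0355, adjusted 0.905). Both were picked after their values were seen. Among drug transporters 17 of 20 were tested, with 16, 11 and 13 above sham in the striatum (medians 0.26, 0.08 and 0.11) and 4, 3 and 2 in the cerebellum (-0.08, -0.33 and -0.25). Markers of vessel cells lay on the same sides by their medians, and Slco1a4 is in both the transporter and the endothelial list. In the striatum 7 of 7 endothelial markers were above sham at each loading (medians 0.28, 0.28 and 0.19), as were 8 of 8 mural markers (0.56, 0.28 and 0.23). In the cerebellum 2, 2 and 1 endothelial markers (-0.02, -0.16 and -0.37) and 4, 2 and 3 mural markers (-0.04, -0.33 and -0.30) were above sham. Astrocyte markers were above sham for 10, 9 and 10 of 10 in the striatum and 10, 8 and 4 in the cerebellum. Microglial markers were so for 5, 6 and 6 of 6 and for 4, 6 and 4. Oligodendrocyte markers were so for 7, 2 and 2 of 7 and for 7, 7 and 7. None of these markers was called, and their part in the transporter values was not tested.

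Between regions, the partners and relatives of the members differed in both directions. Arnt2, the brain paralog of Arnt, stood at 209 ± 51.8 CPM in the striatum against 63.4 ± 37.4 CPM in the cerebellum (1.74 ± 0.15, adjusted p 6.42e-16), opposite in direction to Arnt. Sult1d1, a sulfotransferase that acts on dopamine and related compounds in mice, stood at 20.4 ± 5.34 CPM against 0.755 ± 1.70 CPM, opposite in order to Sult1a1. Its cerebellar median was 1 read, below the floor of 3 reads, so no fold is given. Papss2, which makes the sulfate donor, was higher in the striatum (27.4 ± 7.53 against 5.12 ± 3.54 CPM, 2.44 ± 0.16), as was Cyp46a1, the neuronal cholesterol hydroxylase (412 ± 80.9 against 73.6 ± 51.5 CPM, 2.51 ± 0.13). Slc22a6, a transporter of organic anions, was lower there (1.73 ± 2.01 against 20.6 ± 34.99 CPM, -3.53 ± 0.35), at a striatal median of 9 reads. In the sulfation list 5 genes were called higher and 3 lower in the striatum out of 12, and in the list of microsomal oxidases 17 and 8 out of 33. Over all genes 71.6% were called, 30.8% higher and 40.8% lower. Both lists held more genes called higher than lower, unlike all genes, and this lean was not tested.

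The genes whose levels ran most like each member over the libraries of a region were named by Spearman's rho of log2 CPM, as a description of libraries that share punch composition and depth. Ahr ran most like Atp2c1, a Golgi calcium pump (0.87, 30 striatal libraries), and Ptgs2, a prostaglandin synthase (0.83, 31 cerebellar libraries). Arnt ran most like Golgb1 (0.88) in the striatum. Cyp2d4 ran most like Bcan, a matrix proteoglycan (0.74), and Rac1, a small GTPase (0.72), the lowest values among the members. Sult4a1 ran most like Pgam1, a glycolytic enzyme (0.94), in the striatum and Tmem88 (0.97) in the cerebellum. Aldh1a1 ran most like Agt, angiotensinogen (0.86), and Plekhb1 (0.89). In the cerebellum Sult1a1 ran most like Crabp2, a retinoic acid binding protein (0.91), Fmo1, a flavin oxidase (0.91), and Slc22a6 (0.88), and Cyp1b1 most like Cdh1, an adhesion protein (0.91), and Thbd, thrombomodulin (0.90). In the striatum the nearest gene to Sult1a1 was Mir762 (0.77), followed by Ifi30 (0.77).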

How the data were processed

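The deposited tables, 1 for each region, gave whole reads assigned to each NCBI Gene ID, so the unit is a raw count as the authors made it. The submitters' processing notes name FastQC, HISAT2 and rn6. Which counter, annotation or strand setting was used is not given in the sources used here. The labels' protocols do not say, for each library, whether poly(A) capture or depletion of ribosomal RNA was used. The lowest gene total in each table was 10 reads. Symbols came from RefSeq.

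Library sizes were scaled with edgeR's TMM factors, the counts were filtered with filterByExpr (12267, 11946 and 12616 genes left for the striatum, the cerebellum and both) and fitted in edgeR 4.0.16 (R 4.3.3, limma 3.58.1) by robust quasi-likelihood with 4 groups per region. Tests were two-sided, adjusted over all genes, threshold 0.05. Lists' library means use a prior count of 2. The fit was tested on simulated data. Alternatives were relative log expression factors, DESeq2 1.42.0, no filter, a block for runs of 15 animal numbers, leaving out each library or those standing apart, and a replicate block for the rat. Deviations of same-rat libraries from their group means had a median correlation of 0.35 over 29 pairs (-0.24 to 0.82, 21 over 0.1). Libraries of different rats were not compared in this way. Animal numbers in the labels give the pairing. The labels name 4 cohorts but not each rat's. All 8 genes are named; pathway genes were named for an unadjusted p under 0.05 in 1 direction in both regions, or among the 3 smallest p between regions per list. For likeness, up to 3 genes per member were taken. The cerebellar likeness result for Arnt is not reported here. Members and lists were chosen with earlier results of these data known.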

Additional observations from a re-analysis of the deposited data

Results flagged for a closer look

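In 52 sets of a member's values within one region and loading, 6 single libraries lay far enough from the rest of their group to be singled out by Dixon's criterion, which chance meets in about 1 of 20 groups. In the striatum these were Ahr in low 20 at 26.99 CPM (median of the other low libraries 6.61) and Arnt in medium 41 at 8.47 CPM (32.3). In the cerebellum they were Arnt in sham 48 at 8.06 CPM (64.7), Cyp2d4 in low 6 at 71.1 CPM (45.5), Sult1a1 in sham 48 at 139.6 CPM (18.6) and Sult1a1 in low 35 at 45.1 CPM (16.3). All but low 35 were among the libraries standing apart.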

How the results depend on the processing

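None of the 1425 fits of a member against sham, over all settings, had an adjusted p under 0.05 (lowest 0.267, cerebellar Ahr at high without high 44). Of the 39 fold changes, 0 took the other sign with relative log expression factors, DESeq2 or no filter, 2 with the block for runs of animal numbers (striatal Sult1a1 at medium 0.0104, cerebellar Ahr at medium -0.0912) and 24 without the libraries standing apart. The last, on fewer libraries, were in the striatum Ahr -0.28 at low, Arnt 0.15 and Sult1a1 0.0655 at medium, and Ahr -0.16, Arnt 0.0124, Sult1a1 0.0747 and Sult4a1 -0.17 at high. In the cerebellum they were Ahr 0.19, Arnt 0.10, Cyp1b1 0.72, Cyp2d4 -0.0206, Sult1a1 0.26, Sult4a1 -0.0734 and Aldh1a1 -0.0312 at low, Arnt 0.10, Cyp1b1 0.31, Cyp2d4 -0.0851, Sult4a1 -0.14 and Aldh1a1 -0.0719 at medium, and Arnt 0.15, Cyp1b1 0.23, Sult1a1 0.11, Sult4a1 -0.21 and Aldh1a1 -0.12 at high. Between regions Ahr was -0.21 without those libraries.

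Leaving out 1 library at a time turned the sign of 20 of the 39. In the striatum the ranges were -0.27 to 0.42 for Ahr and -0.0799 to 0.16 for Sult1a1 at low, -0.13 to 0.0878 for Arnt, -0.0750 to 0.12 for Sult1a1 and -0.0019 to 0.40 for Aldh1a1 at medium, and -0.0885 to 0.36 for Ahr, -0.10 to 0.0958 for Arnt, -0.0808 to 0.12 for Sult1a1 and -0.0807 to 0.18 for Sult4a1 at high. In the cerebellum they were -0.18 to 0.0464 for Ahr, -0.22 to 0.12 for Arnt, -0.98 to 0.33 for Cyp1b1, -0.0833 to 0.12 for Cyp2d4, -1.10 to 0.13 for Sult1a1 and -0.0568 to 0.31 for Sult4a1 at low, -0.10 to 0.15 for Ahr, -1.08 to 0.13 for Cyp1b1, -0.0407 to 0.16 for Cyp2d4 and -0.68 to 0.45 for Sult1a1 at medium, and -0.72 to 0.35 for Sult1a1 at high.

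Counts over all genes moved more. The 3 striatal genes called for any exposure were 0 with DESeq2, 11 with no filter, 0 with the block for runs and 0 without the libraries standing apart, and 0 to 6 when 1 library was left out. In the cerebellum DESeq2 called 1 gene at high, 153 for any exposure and 901 for the trend, and leaving out 1 library gave 0 to 3 and 0 to 1635 for the last 2. For the change between regions DESeq2 called 2 genes at low, 8 at medium and 4 at high, where 6 were called with no filter, 0 without the libraries standing apart and 0 with the replicate block for the rat. That block made Ahr pass between regions (0.29, adjusted p 0.0466 in edgeR's test) and changed no other member's call. The cause of these moves was not tested. Cyp1b1 had a median of 4 striatal and 7 cerebellar reads, and its cerebellar values also moved with single libraries. Floors of 3 reads cover counting error only.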
